A study of Mus musculus with 6 samples.

Results

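The comparison described here is that of TGF-β1 knockdown with control in CT26 cells at 72 h, 1 array against 1 array, over 454 of the 1126 mouse miRNA probes on the platform. Members are the mouse probes whose background-subtracted intensity, averaged over 4 replicate spots, reached 50 on 1 or both of the arrays. CT26 is a mouse colorectal cancer cell line. The knockdown cells carry a short hairpin RNA against TGF-β1 (shRNA-TGF-β1) and the control cells shRNA-Control, both in the pSUPER gfp-neo vector, so the vector is common to both groups. The study sampled both lines at 24, 48 and 72 h on 6 arrays in all, with 1 array for each line and time. The labels call the transfection stable but word the times as hours of transfection, and what the hours count from is not settled. The labels do not say whether a line is 1 clone or a pool, and since the array measures small RNAs the Tgfb1 transcript could not be checked.

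Mature miRNAs guide Argonaute proteins to messenger RNAs mainly through their seed, the bases at positions 2 to 8, and lower the stability and translation of the messages they pair with. TGF-β1 is a secreted cytokine that signals through paired receptor kinases to SMAD transcription factors. It restrains growth in normal epithelium, can push carcinoma cells towards a mesenchymal state, and is tied to miRNAs in both directions: SMADs alter the transcription and processing of some miRNAs, and miRNAs such as the miR-200 family repress mediators of the response.

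RefSeq (GRCm38.p6) held a mature sequence for 361 of the 454 members. The sequences below carry the largest differences and the families described further on, written 5′ to 3′ with the seed in capitals. The first set holds miRNAs that were brighter on the knockdown array, and they share no seed with each other except miR-103-3p and miR-107-3p.
miR-882: aGGAGAGAguuagcgcauuagu
miR-207: gCUUCUCCuggcucuccucccuc
miR-433-5p: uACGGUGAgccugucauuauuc
miR-665-3p: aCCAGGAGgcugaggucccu
miR-744-5p: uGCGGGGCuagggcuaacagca
miR-103-3p: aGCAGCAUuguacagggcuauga
miR-107-3p: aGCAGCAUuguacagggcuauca

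The next set was brighter on the control array, and part of it falls into groups with a common seed. These are AGCAGCA in miR-195a, miR-15a, miR-15b and miR-16, GCUACAU in miR-221 and miR-222, and AAAGUGC in miR-106b and miR-93. The miR-30c, miR-22, miR-23a and miR-210 sequences share no seed with others of the set.
miR-195a-5p: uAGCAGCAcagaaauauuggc
miR-15a-5p: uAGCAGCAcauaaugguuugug
miR-15b-5p: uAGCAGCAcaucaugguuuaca
miR-16-5p: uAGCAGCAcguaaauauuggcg
miR-222-3p: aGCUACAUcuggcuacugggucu
miR-221-3p: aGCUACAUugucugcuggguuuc
miR-106b-5p: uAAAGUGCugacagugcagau
miR-93-5p: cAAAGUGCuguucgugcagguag
miR-30c-5p: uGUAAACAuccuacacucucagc
miR-22-3p: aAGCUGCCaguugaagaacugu
miR-23a-3p: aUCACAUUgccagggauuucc
miR-210-3p: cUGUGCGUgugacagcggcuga

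The let-7 miRNAs are shown because their values parted although the sequences are nearly alike.
let-7a-5p: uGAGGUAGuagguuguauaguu
let-7c-5p: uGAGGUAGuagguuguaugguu
let-7b-5p: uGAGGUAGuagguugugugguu
let-7g-5p: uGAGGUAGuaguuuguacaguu
let-7i-5p: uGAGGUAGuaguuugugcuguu

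A fault on the control array has to be described before any difference. In 3 of its 36 printing blocks, numbers 27, 30 and 33, the local background was uneven or high: the median background of block 30 was 607, against 91 to 116 in the blocks other than 27 and 30. After background subtraction 600 of the 15840 spots of this array stood at -100 or lower, the lowest at -1743, and 597 of them lay in these 3 blocks, while the knockdown array had 6 such spots. Each probe has a pair of spots in 1 block and a second pair 18 blocks further on, and 60 of the 454 members had a pair in the 3 blocks. Of those 60, 27 (45.0%) were at least 2-fold higher in the knockdown and 8 (13.3%) at least 2-fold lower. With those spots left out, the same 60 probes gave 14 (23.3%) and 5 (8.33%). Of the 27 higher ones, 12 stayed at least 2-fold and 3 stood below 0.

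Across all 454 members, 84 (18.5%) were at least 2-fold higher in the knockdown than in the control and 115 (25.3%) at least 2-fold lower, together 199 (43.8%). Values were background-corrected, averaged over spots on the log2 scale and quantile normalised over the 6 arrays. A difference is knockdown minus control on that scale, and its standard error (SE) is over the replicate spots only. It covers spot noise, not the spread between cultures. With 1 array a side none of these differences has a replicate check or a test. The median difference was -0.19, the quartiles were -1.01 and 0.68, and the range ran from -4.40 to 3.80. The typical SE over spots was 0.14, or 0.13 outside the 3 blocks and 0.23 inside them. After normalisation the spots of the 2 arrays did not overlap in 188 of the 199 probes that were at least 2-fold apart, and also in 163 of the 255 that were not.

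Without between-array normalisation the split was 57 higher and 170 lower, and the median difference moved to -0.52, so the share of higher against lower calls depends on the scaling: 25.1% of the calls were higher there and 42.2% with quantile normalisation. Without the spots of the 3 blocks, 184 of 461 probes (39.9%) were at least 2-fold apart, 76 (16.5%) higher and 108 (23.4%) lower. Outside the 3 blocks, 57 of 394 members (14.5%) were higher and 107 (27.2%) lower.

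Probes without a mouse miRNA name give a further background. They entered the normalisation with the mouse probes, and what the unnamed ones detect is not known here. Of 733 unnamed probes that reached 50, 149 (20.3%) were at least 2-fold higher and 82 (11.2%) lower. Of 19 herpesvirus probes 5 (26.3%) were higher and 1 (5.26%) lower, and of the 13 with no spot in the 3 blocks 1 (7.69%) was higher and 0 (0.00%) lower.

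Just inside the intensity threshold stood miR-183-5p at 50 on the knockdown and 42.75 on the control array, and just outside it miR-300-3p at 49 and 36.75.

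Of the members, 242 reached 50 on both arrays, 103 on the knockdown array only and 109 on the control array only. Among the 242, 98 (40.5%) were at least 2-fold apart: 34 (14.0%) were at least 2-fold higher and 64 (26.4%) at least 2-fold lower. The other 101 calls have a side under 50, which gives only a bound: that side is set to the lowest level of a probe that reached 50 on the array, or to its own level where higher. Of these, 60 are at least 2-fold at that bound, 23 of 50 higher and 37 of 51 lower. Counted so, 158 of the 454 (34.8%) were at least 2-fold apart, 57 (12.6%) higher and 101 (22.2%) lower. The correlation of the 2 arrays over the 372 probes measured on at least 3 of the 6 arrays was 0.43, below the 0.52 to 0.85 of the other 14 pairs of arrays. It was 0.47 without the high-background spots. Each 48 h array correlated most with the 24 h array of the other line. The 48 h control correlated at 0.85 with the knockdown of 24 h, but at 0.70 and 0.59 with the control of 24 and 72 h. The 48 h knockdown correlated at 0.85 and 0.75 with the control of 24 and 72 h, but at 0.67 and 0.52 with the knockdown. The reason was not tested.

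Some of the brightest probes were alike on both arrays. The 4 spots of miR-5100 lay between 19021 and 23027 on the knockdown array and between 24779 and 27810 on the control array, and as the brightest probe it took the same normalised value on each array. The spots of miR-3963 overlapped, at 4177 to 5393 and 4523 to 5213, with a difference of -0.10 (SE 0.10).

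The largest difference toward the knockdown among probes measured on both arrays was that of miR-882. Its 4 spots read 4152, 4806, 3132 and 3299 on the knockdown array and 248, 292, 247 and 297 on the control array, a difference of 3.19 (SE 0.15) or 9.13-fold. The knockdown spots were all far above the control spots, and at 24 and 48 h the probe differed by only -0.07 and -0.31. Its gene lies on chr12:109682207-109682228 (plus strand), outside the bounds of any protein-coding gene and inside the imprinted Dlk1-Dio3 interval described further on.

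The probe of miR-875-3p read 4055 to 4551 on the knockdown array and 388 to 467 on the control array, a difference of 2.83 (SE 0.06). Spots of miR-207 lay between 3150 and 4634 against 511 and 720, a difference of 2.34 (SE 0.16). In both probes the knockdown spots were far above the control spots. At 24 and 48 h the differences were 0.06 and 0.51 for miR-875-3p and 0.51 and 0.88 for miR-207. miR-207 is annotated at chr4:40722968-40722990 (plus strand), within the bounds of Dnaja1, a co-chaperone gene.

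The other 9 of the 12 highest had differences between 1.64 and 2.25. miR-433-5p and miR-665-3p, whose genes lie within the bounds of the imprinted gene Rtl1 at chr12:109591729-109591750 and chr12:109586368-109586387, differed by 2.25 (SE 0.15) and 2.22 (SE 0.26). For miR-665-3p the control spots ran from 30 to 80, around the threshold, and the knockdown spots from 696 to 1524. miR-290-5p, of a cluster active in mouse embryonic stem cells, read 3276 to 3817 against 630 to 693 and differed by 2.07 (SE 0.06). The rest were miR-5616-5p (1.96), miR-5120 (1.81), miR-711 (1.79), miR-300-5p (1.74), miR-341-3p (1.74) and miR-767 (1.64). In all 12 the lowest knockdown spot was above the highest control spot, and none of the 12 had a spot in the high-background blocks.

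Toward the control, the probe of miR-3096a-3p read 436, 421, 107 and 104 on the knockdown array and 5456, 6023, 5617 and 5685 on the control array. Its difference of -4.39 (SE 0.38), or 21.0-fold, was the largest among probes measured on both. A second probe that carries the names miR-3096a-3p and miR-3096b-3p did not show it, with spots of 4150 to 4821 and 3722 to 5136 and a difference of -0.13 (SE 0.12). The probes named for this miRNA therefore disagree at 72 h.

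miR-195a-5p, a relative of miR-15 and miR-16 that represses cyclins and other cell-cycle genes, read 144, 130, 21 and 59 on the knockdown array and 2645, 2959, 2307 and 2219 on the control array. The difference was -3.63 (SE 0.24), or 12.4-fold lower in the knockdown. Its other arm, miR-195a-3p, differed by 0.43 (SE 0.13), so the arms of 1 hairpin stood on opposite sides of 0. The mature 5p arm is annotated at chr11:70235062-70235082 (plus strand).

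miR-30c-5p read 283 to 503 against 2733 to 3709, a difference of -3.02 (SE 0.17). In mouse hepatocytes the miR-30 family is known to repress Snai1, a driver of the mesenchymal state. The opposite arm from the Mir30c-1 hairpin, miR-30c-1-3p, read 410 to 599 on the knockdown array and 2 to 52 on the control array and differed by 1.63 (SE 0.11), at least 2.61-fold higher. Of 57 hairpins with both arms among the members, 36 had arms of the same sign. Where a side under 50 is taken at its bound, 6 had both arms at least 2-fold, 5 of them with both arms lower and 0 with both higher, and Mir30c-1 was the 1 with arms on opposite sides.

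The spots of miR-22-3p lay between 67 and 433 against 2099 and 2633, a difference of -2.96 (SE 0.39). Those of miR-23a-3p, a miRNA reported as induced by TGF-β, read 692, 373, 13 and 18 against 3455, 1758, 1159 and 1855, a difference of -2.74 (SE 0.75). All control spots were above all knockdown spots in both, but the knockdown spots of miR-23a-3p disagreed with each other. The pair in blocks 1 to 18 of the array was far brighter than the pair in blocks 19 to 36.

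The same gap ran through the lower probes. In each of the 12 lowest, the knockdown spots of blocks 19 to 36 were dimmer than those of blocks 1 to 18, with log2 gaps (blocks 19 to 36 minus blocks 1 to 18) from -2.57 to -0.20. On the control array the gaps of the 12 ran from -3.36 to 0.10 and most were also below 0. The gap of miR-3084-3p was -2.57 on the knockdown and -3.36 on the control array. Over the 107 lower probes without spots in the high-background blocks, the median gap was -0.19 on the knockdown array and 0.20 on the control array. For the same 107 probes it was -0.76 on the knockdown array of 48 h. Either set of blocks alone gave differences below -1 for all 12. Of the 164 probes at least 2-fold apart outside the 3 blocks, 162 had the same sign in both sets of blocks and 123 were at least 2-fold in both. miR-125b-5p, among the brightest on the control array, read 11454, 10965, 245 and 306 on the knockdown array, so its difference of -1.19 (SE 1.42) was 0.52 in blocks 1 to 18 and -3.03 in blocks 19 to 36, and no direction can be read from it.

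The other lowest probes were miR-3084-3p (-2.68, SE 1.26), with overlapping spots, miR-3069-3p (-2.39), miR-3084-5p (-2.24), miR-30d-5p (-2.21), miR-221-3p (-2.21), miR-140-3p (-2.20) and let-7g-5p (-2.16). miR-140-3p is produced from within Wwp2, a ubiquitin ligase gene, and is abundant in cartilage. Both arms of the Mir3084 hairpins were therefore among the 12 lowest. The sign and the 2-fold size of all 24 probes held under each of the 13 alternative ways of computing the difference. The 24 were picked for their size in these same values, so this is no independent check. None had a spot in the high-background blocks, so leaving those blocks out changed only the normalisation for them.

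For probes under 50 on 1 side, the dim array gives only a bound. miR-222-3p read 69, 46, 17 and 25 on the knockdown array and 1769, 2923, 5186 and 4748 on the control array. It was at least 21.1-fold lower. miR-222 and its neighbour miR-221 on the X chromosome (chrX:19146901-19146923, minus strand, for miR-222-3p) are known in human cells to repress the cell-cycle inhibitor CDKN1B.

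miR-106b-5p is encoded with miR-93 and miR-25 within the bounds of Mcm7 and is known in human cells to repress the TGF-β effector CDKN1A. Its spots read 11 to 23 against 637 to 4948. The bound was at least 11.9-fold lower. It averages control pairs that disagree, 830 and 637 in block 14 and 4948 and 4760 in block 32. miR-210-3p, the miRNA most closely tied to hypoxia through HIF-1, read -38 to 38 against 974 to 2601 and was at least 10.7-fold lower. Its control pairs also differed, at 974 and 1143 in block 7 and 2330 and 2601 in block 25. miR-16-5p and the p53-induced miR-34a-5p were at least 6.38-fold and 7.08-fold lower. The latter has a pair of control spots in the high-background blocks, and its difference of -2.82 was -2.03 without them. Its control spots read 535 and 325 in block 15 and 1770 and 1859 in block 33.

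On the other side, miR-744-5p read 1275 to 3358 on the knockdown array and -8 to 24 on the control array, a gap of at least 10.6-fold. It is annotated within the bounds of Map2k4 at chr11:65734799-65734820 (minus strand) and has been reported in human kidney cells to repress TGFB1. At 24 and 48 h its difference was -0.34 and -0.26. miR-5625-3p was at least 4.64-fold and miR-5114 at least 3.88-fold higher. miR-3081-5p, at least 5.91-fold higher from all spots, and miR-1193-3p, at least 3.70-fold higher, both rest partly on the high-background blocks. Their differences of 3.80 and 1.89 became 1.95 and 1.33 without those spots.

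A group of 16 members had a mean control intensity under -100. Their differences ran from 0.69 to 3.80, and from -1.53 to 2.33 without those spots, where 6 were still at least 1. The control mean of miR-592-3p was -495, and its difference of 1.95 became 0.68. For miR-142-5p, a blood-cell miRNA, 2.30 became 0.10, for miR-667-3p 2.50 became 0.18, and for miR-551b-5p 2.47 became 0.99. For miR-3473a 1.47 became -1.10. For miR-199a-5p, a miRNA of fibroblasts and smooth muscle, the difference moved from -0.67 to -2.84, close to the -2.48 of miR-199a-3p/miR-199b-3p, whose probe lies elsewhere. For these probes the size, and for some the side, of the 72 h difference depends on a handful of spots.

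Members that share a seed tended to stand on the same side in some families and not in others. Of the 361 matched members, 27 seeds were shared by at least 2 probes. Probes of a family have near-identical sequences and may take up each other's targets, so they are not independent. The 4 probes with seed AGCAGCA were all at least 2-fold lower: miR-15a-5p (-1.76), miR-15b-5p (-2.33), miR-16-5p (-2.67) and miR-195a-5p (-3.63), with a median of -2.50 against -0.19 over all members. These miRNAs repress cyclins and the survival factor Bcl2. At 24 and 48 h the median of the 4 was -1.39 and 2.11, so it stood on the opposite side at 48 h. In the 13 settings compared, the median of the 4 at 72 h ran from -4.14 to -2.01. The 3 other than miR-195a-5p were under 50 on the knockdown array.

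Of the 5 probes with seed AAAGUGC, all from the miR-17 superfamily of growth-promoting miRNAs, 4 were at least 2-fold lower and the fifth, miR-17-5p, differed by -0.72. The median was -1.99, against -0.97 at 24 h and 2.13 at 48 h. miR-20a-5p read 169 to 264 against 546 to 946 and differed by -1.69 (SE 0.18), and miR-93-5p, at -10 to 28 against 326 to 761, was at least 4.62-fold lower. The pair with seed GCUACAU, miR-221-3p and miR-222-3p, had a median of -3.30, and the pair with GGCAGUG, miR-34a-5p and miR-34b-5p, of -2.80. For the miR-221, miR-222 and miR-34 probes every control spot stood above every knockdown spot. At 24 and 48 h the median was -1.05 and 2.53 for GCUACAU, and -1.11 and 1.58 for GGCAGUG.

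The let-7 miRNAs, which repress Ras and Hmga2, were divided. let-7g-5p (-2.16), let-7i-5p (-1.96), let-7b-5p (-1.77) and let-7d-5p (-1.16) were at least 2-fold lower and let-7e-5p differed by -0.96. let-7c-5p was at 0.38 (SE 0.27) and let-7a-5p at 0.82 (SE 0.29), and the spots of both overlapped between the arrays after normalisation. Before it, let-7c-5p read 972 to 1414 against 303 to 792. let-7b-5p and let-7c-5p differ in 1 of 22 bases, yet stood on opposite sides of 0. The spots of let-7b-5p on the knockdown array ran from 59 to 2516, however, so its value carries an SE of 1.04.

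The pair with seed GCAGCAU and the 3p arms of miR-29 stood on the knockdown side. miR-103-3p, from hairpins within Pank2 and Pank3, read 942 to 1069 against 157 to 196 and differed by 1.36 (SE 0.05). Its near twin miR-107-3p, within Pank1, was at least 3.19-fold higher, with a difference of 2.91 that became 2.33 without the high-background spots. The miR-29 probes, which repress collagen genes, differed by 0.80 (miR-29a-3p, SE 0.32), 1.62 (miR-29b-3p, SE 0.54) and 0.73 (miR-29c-3p, SE 0.08). All 3 were above 0 and miR-29b-3p reached 2-fold, with 3.32 in blocks 1 to 18 but 0.65 in blocks 19 to 36. The spots of miR-29a-3p overlapped between the arrays after normalisation.

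Lists of miRNAs by family, cluster or role gave the following counts of members at least 2-fold higher and lower, to be read against 18.5% and 25.3% over all members. They include probes with a side under 50. With such sides at their bounds the higher count became 0 for the lists of miR-17-92, p53-linked, epithelial-state and Sfmbt2 miRNAs, and 1 for miR-23/27/24. It became 8 for Dlk1-Dio3, 2 for miRNAs reported as induced by TGF-β and 3 for those reported as repressed. The lower count became 0 for inflammation and blood, 1 for the epithelial-state list and 4 for the miR-15/16 and p53-linked lists. It became 9 for the list reported as induced by TGF-β and 12 for Sfmbt2. Over all members the shares at the bounds were 12.6% higher and 22.2% lower. The let-7 list had 0 higher and 5 lower of 10 members (median -1.06), the miR-15/16 list 1 and 5 of 8 (-1.63), and the list of miR-17-92 and its paralogous clusters 3 and 5 of 14 (-0.49). The single higher member of the miR-15/16 list, miR-503-3p, turned from 1.22 to -0.82 without the high-background spots. The miR-29 list had 1 and 1 of 5 (0.73), the miR-30 list 1 and 3 of 9 (-0.16), and the list of the miR-23/27/24 clusters 3 and 3 of 10 (0.05). In the last, miR-27a-3p was higher by at least 2.16-fold and its cluster neighbours miR-23a-3p and miR-24-2-5p were lower, the latter at least 2.78-fold. The median of the miR-23/27/24 list was below 0 without normalisation and with median scaling, and that of the miR-30 list was above 0 with cyclic loess, in blocks 1 to 18 and in 2 other settings.

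The miR-221 and miR-222 list had 0 and 2 of 3 (-2.21), and the list of p53-linked miRNAs 1 and 5 of 6 (-1.12), with miR-34b-5p at least 4.69-fold lower. Without the high-background spots the latter had 1 and 4, since miR-34b-3p went from -1.03 to -0.61. miR-10, miR-99/100 and miR-125 together had 0 and 5 of 9 (-1.16), of which miR-125b-5p is the probe with no readable direction. Here miR-125a-5p, at 297 to 566 against 977 to 2005, differed by -1.88 (SE 0.27) and miR-10b-5p by -1.52 (SE 0.20). The hypoxia and stress list had 1 and 2 of 6 (-0.22), the higher one being miR-132-5p, at least 2.50-fold.

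Markers of the epithelial and mesenchymal states bear on the known role of TGF-β1. The list of epithelial-state miRNAs had 1 and 2 of 7 (-0.01, a median that stood above 0 in 4 other settings, cyclic loess among them). Its higher member, miR-200c-3p, which represses the Zeb factors, went from 1.65 to 0.37 without the high-background spots, while miR-375-3p, at 150 to 194 against 426 to 720, differed by -1.40 (SE 0.15). Most miR-200 family probes were under 50 on both arrays and are not members. The mesenchymal list had 0 and 4 of 8 (-0.95), including miR-199a-3p/miR-199b-3p at -42 to 13 against 317 to 682, at least 4.28-fold lower.

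Of miRNAs reported as induced by TGF-β, 3 were at least 2-fold higher and 10 lower of 24 (-0.45), and of those reported as repressed, 4 and 5 of 18 (0.01). Without the high-background spots these were 2 and 10, and 3 and 5. The median of the repressed list was below 0 without normalisation, with median scaling and in blocks 19 to 36. miR-21a-5p, whose processing SMADs promote in human smooth muscle, read 2707 to 3459 on the knockdown and 898 to 1889 on the control array, a difference of 1.09 (SE 0.23) that became 0.83 without the high-background spots. The colorectal cancer list had 1 and 2 of 5 (0.30), or 0 and 2 without those spots, with miR-31-5p at -1.46 (SE 0.48) and miR-196b-3p at least 2.48-fold lower. That median was -0.51 without normalisation and also below 0 with median scaling. The list of inflammation and blood lineage had 2 and 1 of 9 (-0.05, but above 0 with cyclic loess), or 1 and 2 without the high-background spots. Its member miR-147-3p, at 1224 to 1575 against 179 to 254, was higher by 1.59 (SE 0.09). The list of neuron, muscle and liver miRNAs had 0 and 2 of 6 (-0.66), or 0 and 1 without those spots, where miR-9-5p went from -1.12 to -0.79.

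Some lists are clusters in the genome. The Dlk1-Dio3 imprinted cluster on chromosome 12, a maternally expressed run of miRNAs, had 10 higher and 4 lower of 29 members (median 0.15, or -0.62 without normalisation, and also below 0 with median scaling), and the Sfmbt2 intronic cluster 1 and 13 of 32 (-0.74). Without the high-background spots these were 9 and 4, and 0 and 12. The miR-290-295 list had 2 and 0 of 8 (0.39). Of the 29 matched members in the window chr12:109572044-109747949, the span of that list's matched members, which also takes in miR-882 and was chosen after the values were seen, 11 were at least 2-fold higher and 3 lower. It holds 5 of the 12 highest probes, namely miR-882, miR-433-5p, miR-665-3p, miR-300-5p and miR-341-3p, and 0 of the 12 lowest. miR-540-3p, also there, read 666 to 785 against -38 to -14 and was at least 3.37-fold higher, whereas miR-668-3p differed by -2.14 (SE 0.12). In the Sfmbt2 cluster, miR-467a-5p was at least 4.93-fold lower, and its difference changed side between times, with 3.23 at 24 h, -3.35 at 48 h and -2.90 at 72 h.

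The 72 h differences were set beside those of the earlier times, which come from other arrays. As given above, each 48 h array correlated most with the 24 h array of the other line, which bears on every comparison with 48 h. At 24 h, 46 of 413 probes (11.1%) were at least 2-fold apart, 11 toward the knockdown (2.66%) and 35 toward the control (8.47%). The 48 h arrays gave 153 of 441 (34.7%), of which 95 (21.5% of the 441) stood toward the knockdown and 58 (13.2%) toward the control. Of the 84 higher at 72 h, 33 were on the same side at 24 h, 0 of them by 2-fold, and 47 at 48 h, 8 of them by 2-fold. Of the 115 lower, 84 were on the same side at 24 h, 27 of them by 2-fold. At 48 h, 28 were on the same side, and 40 were at least 2-fold to the opposite side. These same-side counts were not set against the share of all members on each side of 0 at those times. At 2-fold, the 24 h differences leaned toward the control and the 48 h differences toward the knockdown. Across the 454 members, which share platform and normalisation, the differences correlated at 0.21 between 72 and 24 h and at -0.20 between 72 and 48 h.

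Of the 199, 26 kept their sign at all 3 times, 18 higher and 8 lower, a count likewise not set against all members. Of the 12 lowest probes, 11 were above 0 at 48 h, and the exception was miR-3084-5p at -0.80. For miR-3096a-3p the differences at 24, 48 and 72 h were -2.30, 4.28 and -4.39, for miR-22-3p -1.61, 2.88 and -2.96, and for let-7g-5p -1.70, 2.56 and -2.16. By line, the mean intensity of miR-195a-5p was 390, 1669 and 88.5 on the knockdown arrays of 24, 48 and 72 h and 1999, 177 and 2533 on the control arrays. The low value thus lay in the control at 48 h and in the knockdown at 72 h.

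The levels on the 4 arrays of 24 and 48 h, which enter the 72 h difference only through the normalisation, also differed between the groups. The median level there was 8.18 on the log2 scale for the 84 higher probes, 8.10 for the 255 under 2-fold and 8.86 for the 115 lower. Of the 84 higher probes, 15 reached 50 on none of these 4 arrays, against 26 of the 255 under 2-fold and 4 of the 115 lower. At 72 h, 50 of the 84 reached 50 on the knockdown array only, and 51 of the 115 on the control array only. Such probes became members through the array where they are high. These levels and counts may therefore follow partly from the filter, and how far was not tested. The matched lower miRNAs had a median GC content of 45.5% and the higher 50%, the same as those under 2-fold. Across the 361 matched members, the difference correlated with GC content at 0.17.

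The line effect particular to 72 h was tested in limma as the difference at 72 h minus the mean difference at 24 and 48 h, over 372 probes with 1 residual degree of freedom. Of these, 0 (0.00%) passed an adjusted p of 0.05, and 25 had an unadjusted p under 0.05, against 18.6 for 5% of them. The smallest limma adjusted p was 0.184, for miR-222-3p with a term of -5.06. The residual of this fit is only the change of the line difference between 24 and 48 h. On simulated data the same fit recovered 33.8% of 8-fold, 63.3% of 16-fold and 97.5% of 64-fold changes. It also called on average 1, 1.35 and 2.15 unchanged probes. The simulation gave every probe the same spread and independent noise, which the real probes need not have, so these rates hold for that setting only. Without the trend and robust variance 2 probes passed, miR-3096a-3p (limma adjusted p = 0.0307) and miR-222-3p (limma adjusted p = 0.0391).

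Markers fixed for cell types were checked against the labelled line. Of the intestinal epithelium probes, 5 on the knockdown and 4 on the control array of 21 reached 50, the brightest being miR-31-5p at 642 and 1349. Of the 9 fibroblast and smooth muscle probes, 4 and 8 did, led by miR-199a-5p at 1044 and 2512. For blood 1 and 1 of 7 did, for muscle 2 and 2 of 7, for liver 1 and 1 of 2, and for neuron 1 and 2 of 4. The blood count left out the probe of miR-142-5p, a blood-cell miRNA. Its mean was 407 on the knockdown array and -292 on the control array, or 235 on the latter without the high-background spots. Likewise the epithelial probe of miR-200c-3p, counted under 50 at -64.75 on the control array, stood at 74.5 there without those spots. More fibroblast and smooth muscle probes thus reached 50 on the control array, and their part in the differences was not tested. Of 10 other small RNAs at 50 or more on both arrays, 2 were at least 2-fold lower and 3 at least 2-fold higher in unscaled intensity. The box C/D small nucleolar RNA SNORD68 read 199 on the knockdown and 3872 on the control array and SNORD2 1590 and 6254, 5S rRNA read 2128 and 917, and RNU5 668 and 660.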

How the data were processed

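Hy3-labelled total RNA was read in 1 colour on an array of locked nucleic acid probes, per the labels' protocols. The authors deposited, per the file headers, the foreground intensity and the intensity after background subtraction of all 15840 spots of an array, unscaled between arrays. They also deposited 1 ratio for each probe. The scanner software is not given in the sources used here. The number of columns of no sample was 0. Background was corrected by normexp (offset 50) in limma 3.58.1 under R 4.3.3, log2 values of the 4 spots were averaged, and the 6 arrays were quantile normalised. The number of arrays, 1 per group, limits the precision; SEs are over spots.

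Named were the 12 largest differences in each direction among probes at 50 or more on both arrays, the 5 largest bounds in each direction, the 5 brightest on each array, up to 2 members in each direction of each list, the members under -100 on the control array and those nearest the threshold. A few others of the printed families were chosen after their values were seen. For a bound, the dim side was set to the lowest level of any mouse probe that reached 50 on that array, or to the probe's own value where that stood higher. Members and the 20 lists were chosen with earlier results of these data known. The lists were let-7, miR-15/16, miR-17-92, miR-29, miR-30, miR-23/27/24, p53-linked, miR-221 and miR-222, mesenchymal, miR-10/99/100/125, epithelial-state, hypoxia, colorectal cancer, inflammation and blood, neuron, muscle and liver, miR-290-295, Dlk1-Dio3, Sfmbt2, and those reported as induced or repressed by TGF-β.

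The term for the line at 72 h was fitted in limma with the time as a factor, trended and robust variances and Benjamini-Hochberg adjustment over 372 probes, and was tested on simulated data with 40 of them changed. Alternatives covered background correction, offset, scaling, spot summary, filters, fold threshold, variance model and the ratios the authors deposited, with 0.15 added before log2. Host genes are those of RefSeq whose bounds hold the miRNA, strand and exons not compared. Of the members, 11 carry more than 1 miRNA name.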

Additional observations from a re-analysis of the deposited data

Results flagged for a closer look

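The array also carries 57 probes for miRNAs of mouse herpesviruses, which entered the normalisation but are not members of the comparison of mouse miRNAs. Of these, 19 reached an intensity of 50 on an array of 72 h, and 5 (26.3%) were at least 2-fold higher in the knockdown. mghv-miR-M1-3-3p read 645 on the knockdown and 85 on the control array, a difference of 1.38, and mghv-miR-M1-4-3p 1354 and 214, a difference of 1.62. mcmv-miR-m01-2-5p (2.20), mcmv-miR-m88-1-3p (1.59) and mcmv-miR-m108-1-3p (1.17) had control intensities below 0. They and mghv-miR-M1-4-3p have a pair of spots in the high-background blocks of the control array. Without those spots the differences of the 4 were 1.65, 1.51, 0.15 and 1.89, in the order mcmv-miR-m01-2-5p, mcmv-miR-m88-1-3p, mcmv-miR-m108-1-3p and mghv-miR-M1-4-3p. Nothing here shows that any viral sequence was present, and each value is 1 array against 1.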

How the results depend on the processing

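No paired analysis was possible because each line has 1 array at 72 h, and for the same reason no replicate could be left out. Of the 79 named probes at least 2-fold apart, 75 kept their direction under every alternative run for them, 1027 values in all, of which 11 reversed. Reversed values of miR-125b-5p were 0.25 with intensities floored at 50, 0.52 from blocks 1 to 18 and 0.41 from the authors' deposited ratios. Those of miR-503-3p were -0.76 without spots at -100 or lower, -0.82 without the high-background blocks and -1.01 from blocks 1 to 18, and that of miR-142-5p was -0.078 from blocks 1 to 18. Those of miR-3473a were -0.21 from the foreground, -1.03 without spots at -100 or lower, -1.10 without the high-background blocks and -1.30 from blocks 1 to 18. Some of these settings leave out spots or blocks and others do not, and the cause of the reversals was not tested.

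Of the counts, flooring gave 109 higher and 174 lower probes, and the authors' deposited ratios 144 higher and 145 lower, an even split against 84 and 115. Requiring 50 on both arrays gave 98 (34 higher, 64 lower). A threshold of 1.5-fold gave 310 (127 and 183), and of 4-fold 49 (18 and 31). The median over all members was -0.52 without normalisation and 0.03 in the authors' ratios. The limma term at 72 h passed for 2 probes without trend and robust estimation, for 2 without a filter (miR-1912-5p and miR-27b-5p, both with spots in the high-background blocks) and for 1 with cyclic loess (miR-222-3p). The 3 settings that leave out blocks, and the bounds for sides under 50, were chosen after seeing the data. Differences near the background, under 50 on an array, have only a bound, and 1 array a side limits every statement to these cultures.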
